A study of Mus musculus with 12 samples.

Results

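Liver RNA of Otud3 knockout mice was compared with that of wild-type (WT) mice when neither group had received the carcinogen diethylnitrosamine (DEN). These are 6 of the 12 libraries of the series, 3 from No DEN-Otud3 knockout mice and 3 from No DEN-WT mice, chosen by their genotype and treatment labels. The remaining 6 libraries come from the same genotypes after a single intraperitoneal DEN dose of 25 mg/kg at 15 days of age, with tissue taken 30 weeks later. The WT mice were C57BL/6 littermates, and each library is liver from 1 of 3 independent mice per group. The labels describe the DEN-treated mice as male. For the mice without DEN they state neither age at collection nor a sham injection. The labels used here do not describe the knockout allele, and which exons it removes is not given in them.

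OTUD3 is a deubiquitinase of the ovarian tumour (OTU) family, an enzyme that takes ubiquitin chains off other proteins and so changes their stability or activity. Substrates reported for it include the endoplasmic reticulum chaperone GRP78 (gene Hspa5) and the nuclear receptor PPAR-delta. In hepatocytes, nuclear receptors of the PPAR family drive fatty acid oxidation genes, and SREBP2 drives cholesterol synthesis genes when sterols are low. The comparison asks what the knockout label changes in liver before any carcinogen.

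Levels are given as CPM, the counts of a gene per 1e+06 counts of its library once libraries were scaled for composition. The 6 libraries held 29668861 to 30996612 counts, and 13600 genes were listed for both groups, of which 12399 had enough counts to be tested. All 10 hepatocyte markers were listed in both groups, with a summed level of 106000 to 145000 CPM, and none of the 6 skeletal muscle markers was. Several libraries stood apart. Labelled knockout replicate 1 lay alone on the first principal component, which held 44.68% of the variance, and carried very high acute phase genes. WT replicate 2 carried fat cell genes: Adipoq, the adipocyte hormone adiponectin, had 271 counts there against 1 and 5 in the other WT libraries, and is not listed for the labelled knockout group. WT replicate 1 carried the smooth muscle actin Acta2 at 17.1 CPM, against 0.677 to 2.19 in the other 5 libraries. Labelled knockout replicate 3 and WT replicate 2 lay at opposite ends of the second component (20.32% of the variance), at 30.87 and -31.6. In bulk liver, fewer cells of a type and less RNA per cell cannot be told apart.

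Otud3 itself did not separate the groups. The gene (Entrez 73162, chr4:138891063-138914026, GRCm38.p6) had 367, 390 and 350 counts in the WT libraries and 409, 301 and 201 in the labelled knockout libraries. In CPM this was 12.3, 12.01 and 11.7 in WT, and 14.6, 9.97 and 6.71 in labelled knockout. Labelled knockout replicate 1 was thus above every WT library and the other 2 were below. The log2 fold change was -0.20 ± 0.26 (SE, n = 3 per group, edgeR adjusted p = 0.971), and without labelled knockout replicate 3 it turned to 0.02. Over 19 settings of model, scaling or libraries it ran from -0.729 to 0.018, and 2 of the settings gave an unadjusted p under 0.05. The deposited TPM values, which also correct for transcript length, were 3.63, 4.50 and 3.21 in WT and 3.33, 2.05 and 1.59 in labelled knockout. The log2 TPM difference of -0.76 had a two-sided exact permutation p of 0.2, and log2 CPM had 0.6. The smallest p that 3 against 3 can give is 0.1. The count per TPM of Otud3, which follows the transcript length the quantifier assigned, was not among the planned tests. It was 0.34 higher on the log2 scale in labelled knockout, without overlap (exact permutation p = 0.1). After DEN the groups overlapped in this measure, at 0.527, 0.645 and 0.636 in WT and -0.226, 0.931 and 0.687 in labelled knockout. A gene-level value does not show whether a transcript still encodes a working protein, and the libraries are called labelled knockout throughout.

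**Figure D1:**
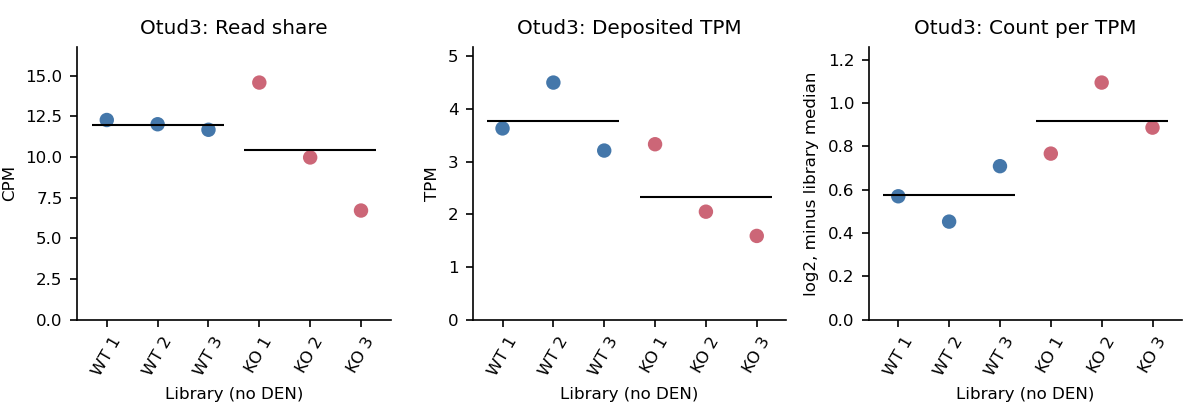
Otud3 in each of the 6 libraries without DEN (blue, WT; red, labelled knockout; KO on the axis), as CPM (left), deposited TPM (middle) and log2 count per TPM minus the library median (right). Points are libraries and lines are group means; CPM overlaps between groups (11.7 to 12.3 in WT, 6.71 to 14.6 in labelled knockout), while log2 count per TPM does not.

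Genes around Otud3 were looked at as the neighbourhood of the targeted site. Within 1 Mb on either side, 21 other genes were tested, 10 of them with a log2 fold change above 0 and a median of -0.01. For 3 of them the groups did not overlap, as for 10.3% of all genes tested. They were Pink1, a mitochondrial kinase gene (log2 fold change -0.15 ± 0.12), Eif4g3, a translation initiation factor gene (0.26 ± 0.12), and Rnf186. Only Rnf186 among the 21 reached an unadjusted p under 0.05 (4.64% of all genes tested). It encodes a RING-type ubiquitin ligase and lies at chr4:138967119-138968365, next to Otud3. It stood at 9.10, 11.5 and 10.9 CPM in WT and 5.56, 5.27 and 2.07 CPM in labelled knockout, with every labelled knockout library below every WT library. Its log2 fold change was -1.29 ± 0.34, with an edgeR unadjusted p of 0.00614 and an adjusted p of 0.97. These 3 genes were singled out after their values were seen.

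Across the transcriptome, edgeR's quasi-likelihood test called 0 of the 12399 genes at an adjusted p under 0.05, and the smallest adjusted p was 0.97. An unadjusted p under 0.05 was reached by 575 genes (4.64%), of which 343 (2.77%) were higher and 232 (1.87%) lower in labelled knockout. The libraries of the groups did not overlap for 1280 genes (10.3%), 686 higher (5.53%) and 594 lower (4.79%). Log2 fold changes were above 0 for 55.4% of genes and their median was 0.03. DESeq2 called 18 genes (0.145%), 6 higher and 12 lower, and limma-voom called 0. The DESeq2 count depended on the libraries: it was 2 without WT replicate 2 and 225 without labelled knockout replicate 3, and 24 to 46 without any 1 of the other 4. Both genes called without WT replicate 2, Cyp2b9 and Fabp5, were among the 18. Scaling by library size alone put 40.3% of genes above 0, with 197 higher and 324 lower at an unadjusted p under 0.05, and the deposited TPM put 28.3% above 0, with 123 higher and 498 lower. The values that follow are levels and fold changes, and no gene named passed edgeR's threshold.

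The 8 genes with the smallest p that were lower in labelled knockout included genes of fat storage and fat oxidation. Plin2, which coats lipid droplets, stood at 881, 822 and 697 CPM in WT and at 487, 377 and 364 CPM in labelled knockout. The log2 fold change was -0.97 ± 0.18 (DESeq2 adjusted p = 0.000623). Cidec, a droplet protein that promotes fusion of droplets, had 17.6, 31.1 and 9.51 CPM in WT and 2.96, 5.3 and 2.303 CPM in labelled knockout. Its log2 fold change was -2.46 ± 0.50 (DESeq2 adjusted p = 0.000395). Cidec is also a fat cell gene and was highest in the WT library with fat cell genes. Leaving WT replicate 2 out gave -1.95 in log2 for Cidec, and DESeq2 then called neither Cidec nor Plin2. Retsat, the retinol saturase, had 382, 717 and 600 CPM in WT against 195, 298 and 258 CPM in labelled knockout (log2 fold change -1.18 ± 0.26). Oat, the mitochondrial ornithine aminotransferase, had 1912, 2047 and 1627 CPM in WT and 942, 1014 and 1129 CPM in labelled knockout (-0.86 ± 0.17 in log2). Zfp36l1, an RNA-binding protein that speeds decay of AU-rich messages, and Ntrk2, the receptor of the neurotrophin BDNF, had log2 fold changes of -0.64 ± 0.14 and -2.13 ± 0.49. Ntrk2 was low throughout, at 1.33 to 3.58 CPM in WT and 0.392 to 0.901 CPM in labelled knockout. Cyp4a32 and Cyp2a22, both cytochrome P450 genes with close paralogs, had log2 fold changes of -0.75 ± 0.15 and -1.32 ± 0.29.

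The genes chosen as higher in labelled knockout belonged to several pathways. Fabp5, a fatty acid binding protein best known from skin, had 18.1, 21.4 and 14.2 CPM in WT and 63.8, 32.6 and 53.7 CPM in labelled knockout. The log2 fold change was 1.48 ± 0.27 (DESeq2 adjusted p = 0.000936), and it was 1.62 without WT replicate 2. Ankrd33b, an ankyrin repeat gene, had 17.3, 18.0 and 20.2 CPM in WT and 40.6, 30.9 and 30.7 CPM in labelled knockout (log2 fold change 0.88 ± 0.15). Fkbp11, a prolyl isomerase of the secretory pathway, had 10.3, 8.16 and 9.67 CPM against 16.95, 16.8 and 14.95 CPM (0.79 ± 0.15 in log2). Rbm3, the cold-inducible RNA-binding protein, had 20.3, 16.3 and 18.2 CPM against 29.1, 27.7 and 28.6 CPM (0.64 ± 0.13). Hes6, a Hes family transcription factor, and Wdr6, a WD repeat protein, had log2 fold changes of 0.62 ± 0.13 and 0.69 ± 0.15. Fam107a was scarce, at 0.216 to 0.502 CPM in WT and 1.09 to 2.85 CPM in labelled knockout. For all of the genes chosen in this way the groups did not overlap, which the rule that chose them required.

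**Figure D2:**
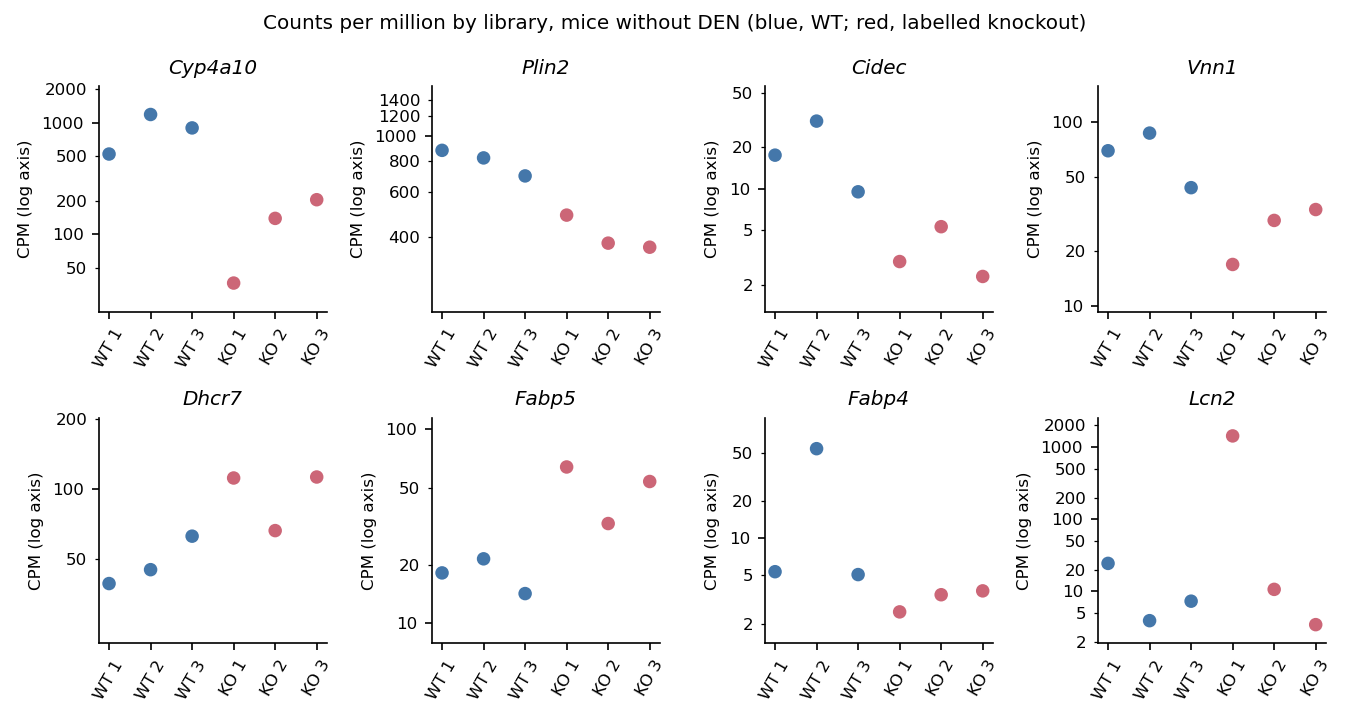
CPM on a log axis in each of the 6 libraries without DEN (blue, WT; red, labelled knockout) for 8 genes. Cyp4a10, Plin2, Cidec and Vnn1 lie lower and Dhcr7 and Fabp5 higher in every labelled knockout library, Fabp4 is high in WT replicate 2 (54.1 CPM), and Lcn2 in labelled knockout replicate 1 (1433 CPM).

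Most genes of the fatty acid oxidation and PPAR response group were lower in labelled knockout. This list, like those below, was chosen with earlier results of these data known, so its counts only describe. Of 28 members tested, 25 had a log2 fold change below 0 (44.6% of all genes did). An unadjusted p under 0.05 was reached by 14, all lower (1.87% of all genes), and 17 had no overlap in that direction (4.79%). The median was -0.54, against 0.03 over all genes. Cyp4a10 and Cyp4a14, fatty acid omega-hydroxylases and classic PPAR-alpha targets, had the widest spread. Cyp4a10 stood at 523, 1181 and 896 CPM in WT and 36.5, 139 and 204 CPM in labelled knockout (log2 fold change -2.78 ± 0.63, DESeq2 adjusted p = 0.000395). Cyp4a14 stood at 411, 1329 and 881 CPM in WT and 14.5, 29.2 and 252 CPM in labelled knockout (-3.15 ± 1.13 in log2). Their near copies can share reads, and 2 of them, Cyp4a31 and Cyp4a32, were also called lower by DESeq2. Vnn1, a pantetheinase and PPAR-alpha target, had 69.8, 87.0 and 44.0 CPM in WT and 16.9, 29.3 and 33.5 CPM in labelled knockout (-1.33 ± 0.32). Fgf21, the fasting hormone, had 3.85, 2.65 and 1.801 CPM in WT and 0.712, 0.762 and 1.54 CPM in labelled knockout.

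The enzymes of the pathway had smaller fold changes than Cyp4a10 and Cyp4a14. Cpt2, which completes fatty acid entry into mitochondria, had 194, 200 and 188 CPM in WT and 110, 147 and 121 CPM in labelled knockout (log2 fold change -0.62 ± 0.15). Acadm, the medium-chain acyl-CoA dehydrogenase, had 325, 467 and 393 CPM in WT and 211, 271 and 289 CPM in labelled knockout. Cpt1a, the carrier that starts mitochondrial import, overlapped between groups, at 385, 421 and 302 CPM and 382, 382 and 236 CPM. The receptor gene Ppara had a log2 fold change of 0.00 ± 0.20 and Ppard one of 0.21 ± 0.17. The member with the highest log2 fold change was the coactivator gene Ppargc1a (0.92 ± 0.42), at 12.7 CPM in labelled knockout replicate 3 and 3.04 to 4.95 CPM in the other 5 libraries.

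The size of this group's difference varied with the libraries that stood apart. Against the WT mean, the median member was -0.81 in log2 in labelled knockout replicate 1, -0.37 in replicate 2 and -0.50 in replicate 3, and 0.15 in WT replicate 2. Without WT replicate 2 and labelled knockout replicate 1 together, 24 of 28 members stayed below 0 and the median was -0.28. An unadjusted p under 0.05 was then reached by 6 members, and by 393 of all 12438 genes.

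Lipid droplet and lipolysis genes included Plin2 and Cidec again. Of 16 members tested, 12 were below 0 (44.6% of all genes) with a median of -0.40. An unadjusted p under 0.05 was reached by 5, all lower (1.87% of all genes). G0s2, an inhibitor of the lipase ATGL, had 268, 89.8 and 77.2 CPM in WT and 31.7, 70.0 and 36.1 CPM in labelled knockout. Plin5, which coats droplets in oxidative cells, had a log2 fold change of -0.41 ± 0.15. Cidea, a droplet protein of brown fat, had 9.54 CPM in WT replicate 2 and at most 1.33 CPM in any other library. Summed CPM of the 2 adipocyte markers listed in both groups, Fabp4 and Cfd, was 88.7 in WT replicate 2 and 2.56 to 13.3 in the other 5 libraries. With that library left out, the list median was -0.32 and the Plin2 log2 fold change -0.96.

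Cholesterol synthesis and SREBP2 target genes pointed the other way. All 24 members tested had a log2 fold change above 0 (55.4% of all genes), 23 by library size alone and 22 by deposited TPM. Of the 24, 11 had an unadjusted p under 0.05 (2.77% of all genes, higher), and 6 had no overlap between groups (5.53%). The median was 0.81. Dhcr7, which makes the last step to cholesterol, had 39.3, 45.0 and 62.7 CPM in WT and 111, 66.3 and 113 CPM in labelled knockout (log2 fold change 0.98 ± 0.26). Nsdhl, a sterol dehydrogenase, had 49.1, 30.8 and 38.5 CPM in WT and 72.2, 55.5 and 103 CPM in labelled knockout (0.96 ± 0.26). Lss, the lanosterol synthase, had 22.5, 22.6 and 27.2 CPM in WT and 46.4, 27.7 and 64.2 CPM in labelled knockout (0.93 ± 0.28).

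Labelled knockout replicate 2 was closer to WT than the other 2 for many of these genes. Sqle, the squalene epoxidase, had 27.0, 21.8 and 20.6 CPM in WT but 85.3, 25.8 and 60.4 CPM in labelled knockout. Against the WT mean, the median member was 0.71 in log2 in labelled knockout replicate 1, 0.16 in replicate 2 and 1.29 in replicate 3. Without replicate 3, the median was 0.46 and 21 of 24 members stayed above 0, and with quality weights that give replicates 1 and 3 less weight it was 0.24. Srebf2, which encodes SREBP2, had a log2 fold change of 0.27 ± 0.12, with no overlap.

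**Figure D3:**
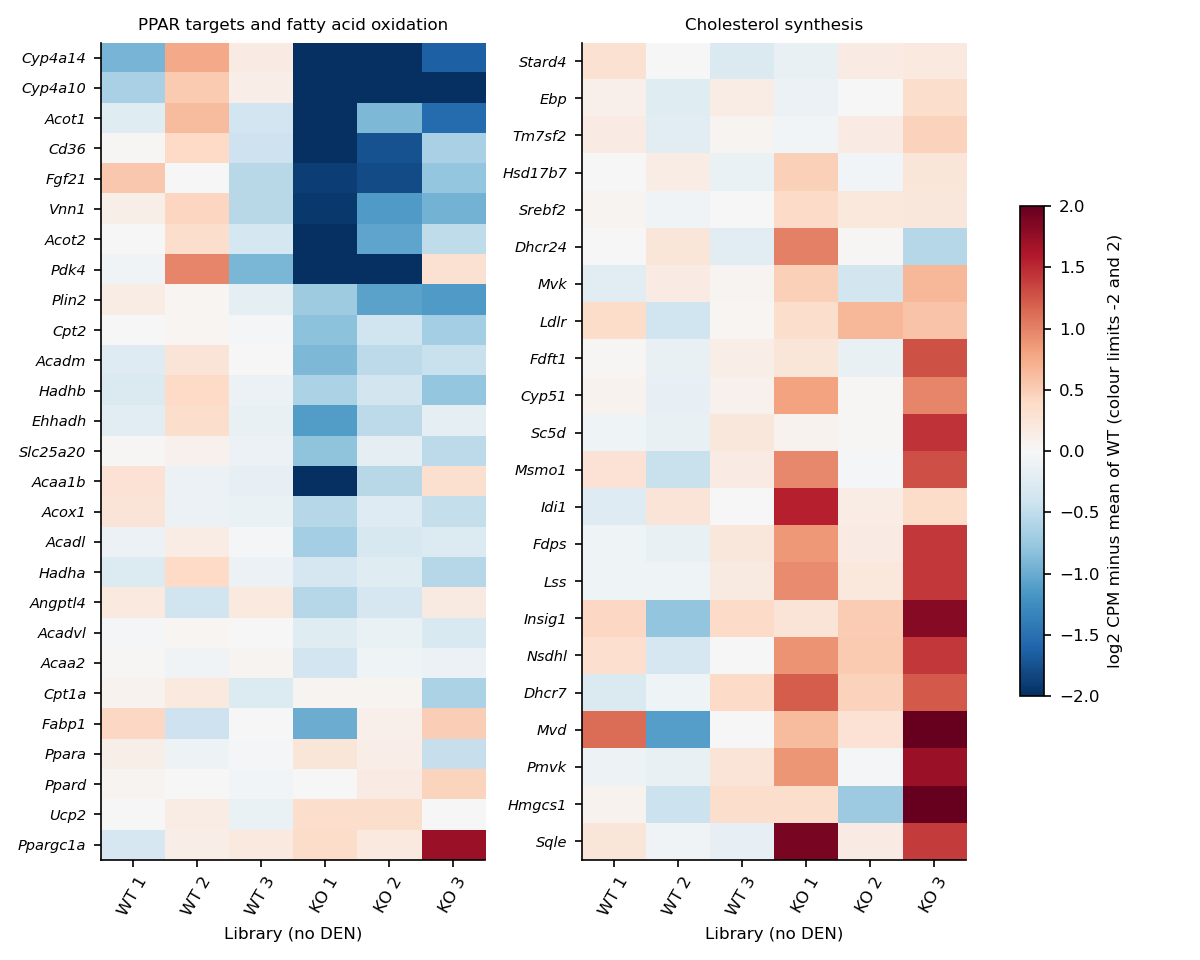
Log2 CPM minus the WT mean for the members reported here of the PPAR and fatty acid oxidation list (left) and of the cholesterol synthesis list (right) in the 6 libraries without DEN; KO is labelled knockout and colours stop at -2 and 2. In the left block most cells of labelled knockout are blue, strongest in replicate 1, and in the right block red is deepest in replicates 1 and 3 and weak in replicate 2.

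Promoter sequence was read for both lists, as the 300 bases from 250 before to 50 after the RefSeq start (GRCm38.p6). The motif searched for SREBP was TCACNCCAC and for PPAR a direct repeat of the half-site AGGNCA with 1 base between (DR1), both on either strand. Of the 16 cholesterol genes with a promoter in the table, 1 (6.25%) held the first motif, against 1.46% of tested genes, and 2 of 21 PPAR genes also did. Of the 21 PPAR genes, 1 held the second motif, against 0.382% of tested genes. The 2 promoters are shown because each belongs to one of the lists and holds the motif of its regulator, with the match in capitals. The first is Hmgcs1, which makes HMG-CoA for the mevalonate pathway (chr13:119690101-119690400, plus strand), with the match 137 bases before the start. The second is Fabp1, the liver fatty acid binding protein (chr6:71199629-71199928, plus strand), with a match on the minus strand 67 bases before the start.
Hmgcs1: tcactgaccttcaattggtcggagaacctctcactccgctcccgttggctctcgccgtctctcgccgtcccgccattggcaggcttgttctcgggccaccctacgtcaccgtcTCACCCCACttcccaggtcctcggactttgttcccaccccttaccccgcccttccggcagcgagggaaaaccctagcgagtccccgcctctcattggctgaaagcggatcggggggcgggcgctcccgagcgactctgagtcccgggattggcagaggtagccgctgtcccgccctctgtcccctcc
Fabp1: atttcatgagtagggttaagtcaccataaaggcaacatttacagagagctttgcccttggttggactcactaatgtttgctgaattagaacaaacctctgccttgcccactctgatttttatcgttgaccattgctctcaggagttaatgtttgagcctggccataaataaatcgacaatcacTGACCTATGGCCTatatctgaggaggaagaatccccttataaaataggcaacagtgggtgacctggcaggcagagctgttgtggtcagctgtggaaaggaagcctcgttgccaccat
The log2 fold changes of both genes lay above their list medians of 0.81 (cholesterol) and -0.54 (PPAR). Hmgcs1 had 106, 74.7 and 129 CPM in WT and 129, 61.0 and 481 CPM in labelled knockout, a log2 fold change of 1.12 ± 0.72 with replicate 3 far above the rest. Fabp1 had 5026, 2829 and 3772 CPM in WT and 1892, 4054 and 5325 CPM in labelled knockout, a log2 fold change of -0.04 ± 0.38. A match is a stretch of letters and shows no binding.

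Fatty acid synthesis genes had values between those of the lists above. Of 24 members, 20 were above 0 (55.4% of all genes) with a median of 0.42. An unadjusted p under 0.05 was reached by 4, all higher (2.77% of all genes). Fads1, the delta-5 desaturase, had 358, 275 and 278 CPM in WT and 396, 407 and 435 CPM in labelled knockout (log2 fold change 0.44 ± 0.16). Acss2, which makes acetyl-CoA from acetate, had 104, 87.6 and 102 CPM in WT and 116, 125 and 348 CPM in labelled knockout. Without replicate 3 of labelled knockout the list median was 0.14.

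Most drug-metabolising cytochrome P450 genes had log2 fold changes below 0 in labelled knockout. Of 34 members of families 1 to 3 tested, 27 were below 0 (44.6% of all genes). An unadjusted p under 0.05 was reached by 12, all lower (1.87% of all genes), and 15 did not overlap in that direction (4.79%). The median was -0.33, and the other 7 members were above 0, the highest at 1.82. Several were Cyp2c genes, whose products act on steroids, fatty acids and drugs. Cyp2c37 had 350, 335 and 403 CPM in WT and 169, 241 and 256 CPM in labelled knockout (log2 fold change -0.71 ± 0.19). Cyp2c39 had 2.17, 3.20 and 2.34 CPM in WT and 0.641, 0.961 and 1.27 CPM in labelled knockout (-1.42 ± 0.33). Cyp2b9 had the lowest edgeR unadjusted p of the list, 0.00033, at 1.91, 0.616 and 1.13 CPM in WT and 0.143, 0.0663 and 0.1001 CPM in labelled knockout (log2 fold change -3.52 ± 0.58, DESeq2 adjusted p = 0.00188). Cyp2b9 and Cyp2a22 had low counts and each has close paralogs, so their values are uncertain. Cyp3a11, the main drug-metabolising form in mouse liver, had 2408, 2488 and 3383 CPM in WT and 1476, 1780 and 2378 CPM in labelled knockout.

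Sex-biased liver genes were set apart because several of these P450 genes belong to them. Of 15 female-biased genes tested, 13 were below 0 (44.6% of all genes) and the median was -0.83. An unadjusted p under 0.05 was reached by 4, all lower (1.87% of all genes). Against the WT mean, the median member was 0.50, -0.02 and -0.70 in log2 in WT replicates 1, 2 and 3 and -0.70, -0.51 and -0.70 in labelled knockout. The groups thus overlapped, with WT replicate 3 as low as labelled knockout, and without WT replicate 1 the median of the fold changes was -0.50. Cyp2b9, Cyp2c39 and Cyp2c69 are on this list as well as on the P450 list. Of 25 male-biased genes, 20 were above 0 (55.4% of all genes) with a median of 0.44. An unadjusted p under 0.05 was reached by 10 higher (2.77% of all genes) and 1 lower (1.87%). Mup21, a major urinary protein gene, had 410, 287 and 410 CPM in WT and 492, 682 and 772 CPM in labelled knockout (log2 fold change 0.82 ± 0.22). Mup11 had 3339, 2453 and 3445 CPM in WT and 15910, 8446 and 3448 CPM in labelled knockout, and its near-identical neighbours share reads. Gstp1, a glutathione transferase, had 2218, 1278 and 2495 CPM in WT and 4323, 4070 and 3089 CPM in labelled knockout (0.94 ± 0.28).

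Most interferon response genes had log2 fold changes below 0, and most members overlapped between the groups. Of 33 members, 30 were below 0 (44.6% of all genes) with a median of -0.45. An unadjusted p under 0.05 was reached by 5 lower (1.87% of all genes) and 1 higher (2.77%). The groups did not overlap for 7 that were lower (4.79% of all genes) and 1 that was higher (5.53%). Against the WT mean, the median member was -0.12, 0.23 and -0.16 in log2 in WT and -0.43, -0.13 and -0.76 in labelled knockout, whose replicate 2 lay within the WT range. Without WT replicate 2 the median of the fold changes was -0.25. An unadjusted p under 0.05 was then reached by 2 members, and by 339 of all 12534 genes. Isg15, a ubiquitin-like modifier, had 13.3, 11.3 and 11.3 CPM in WT and 8.66, 7.95 and 7.21 CPM in labelled knockout (log2 fold change -0.59 ± 0.15). Irf9, a subunit of the interferon-activated complex, had 46.2, 42.7 and 38.1 CPM in WT and 31.3, 33.5 and 22.4 CPM in labelled knockout. Oas2, an antiviral synthetase, was the higher exception at 0.55 ± 0.23 in log2.

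Liver sinusoidal endothelial markers had 16 of 18 members below 0 (44.6% of all genes) and a median of -0.49. An unadjusted p under 0.05 was reached by 7, all lower (1.87% of all genes). Kdr, the VEGF receptor, had 12.98, 12.9 and 9.81 CPM in WT and 5.70, 9.64 and 8.38 CPM in labelled knockout (log2 fold change -0.59 ± 0.22). The summed level of the list was 190 to 238 CPM in WT and 127, 198 and 212 CPM in labelled knockout. Without labelled knockout replicate 1, or without WT replicate 1 or 2, no member reached an unadjusted p under 0.05 and the medians were -0.30, -0.42 and -0.43. Hepatic stellate cell and matrix markers had 16 of 17 members below 0 and a median of -0.26. Of these markers, 1 had an unadjusted p under 0.05, which 4.64% of all genes reached. Their summed level was 163 CPM in labelled knockout replicate 1 and 262 to 328 CPM in the other 5 libraries, so the groups overlapped. Macrophage markers had 14 of 16 members above 0 and a median of 0.40, 0 of them with an unadjusted p under 0.05. Their summed level was 121, 317 and 173 CPM in WT and 306, 285 and 199 CPM in labelled knockout, so the groups overlapped.

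Acute phase genes were decided by 1 library. Of 33 members, 31 were above 0 with a median of 0.75, yet without labelled knockout replicate 1 only 7 were and the median was -0.44. Lcn2, an iron-sequestering acute phase protein, had 24.5, 3.94 and 7.34 CPM in WT and 1433, 10.7 and 3.47 CPM in labelled knockout. Saa3, a serum amyloid, had 3.28, 3.82 and 3.20 CPM in WT and 604, 4.31 and 3.34 CPM in labelled knockout. The same library also had the lowest Cyp4a10 and Vnn1 levels, and the part of its acute phase state in the PPAR and P450 values was not tested beyond leaving it out, after which the PPAR median was -0.40 and the P450 median -0.28.

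Clock genes differed between libraries as well. Nr1d1, the repressor REV-ERB-alpha, had 144, 98.5 and 138 CPM in WT and 62.1, 40.9 and 97.1 CPM in labelled knockout (log2 fold change -0.93 ± 0.31). Per1, a core clock repressor also driven by glucocorticoids, had 38.4, 9.97 and 17.3 CPM in WT and 59.5, 45.4 and 44.0 CPM in labelled knockout (1.18 ± 0.46). Of the 24 clock genes tested, only these 2 had an unadjusted p under 0.05, which 4.64% of all genes reached. The labels used here give no hour of collection or feeding state, and the part of either in the lipid values was not tested.

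Reported substrates and regulators of OTUD3 had small differences in RNA. Of the 10, 7 were above 0 (4 by deposited TPM), none reached an unadjusted p under 0.05, and the log2 fold changes ran from -0.17 to 0.21. Hspa5, the chaperone GRP78, had 971, 618 and 637 CPM in WT and 806, 510 and 667 CPM in labelled knockout (-0.17 ± 0.25). Trp53 had -0.15 ± 0.13, the mitochondrial antiviral adaptor Mavs -0.10 ± 0.25 and the iron regulatory protein gene Ireb2 0.02 ± 0.15. Crebbp, the acetyltransferase CBP, had 0.17 ± 0.13, and the deacetylase Sirt1 0.21 ± 0.17. The ubiquitin ligase gene Stub1 had 0.09 ± 0.14 and Tmem173, which encodes STING, 0.18 ± 0.27. RNA levels do not measure the proteins that a deubiquitinase acts on. Of 14 OTU family genes tested, Otud3 among them, 12 were above 0 (55.4% of all genes) and the median was 0.18. None reached an unadjusted p under 0.05. The groups did not overlap for 2, Otud1 and Tnfaip3, both higher (5.53% of all genes).

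**Figure D4:**
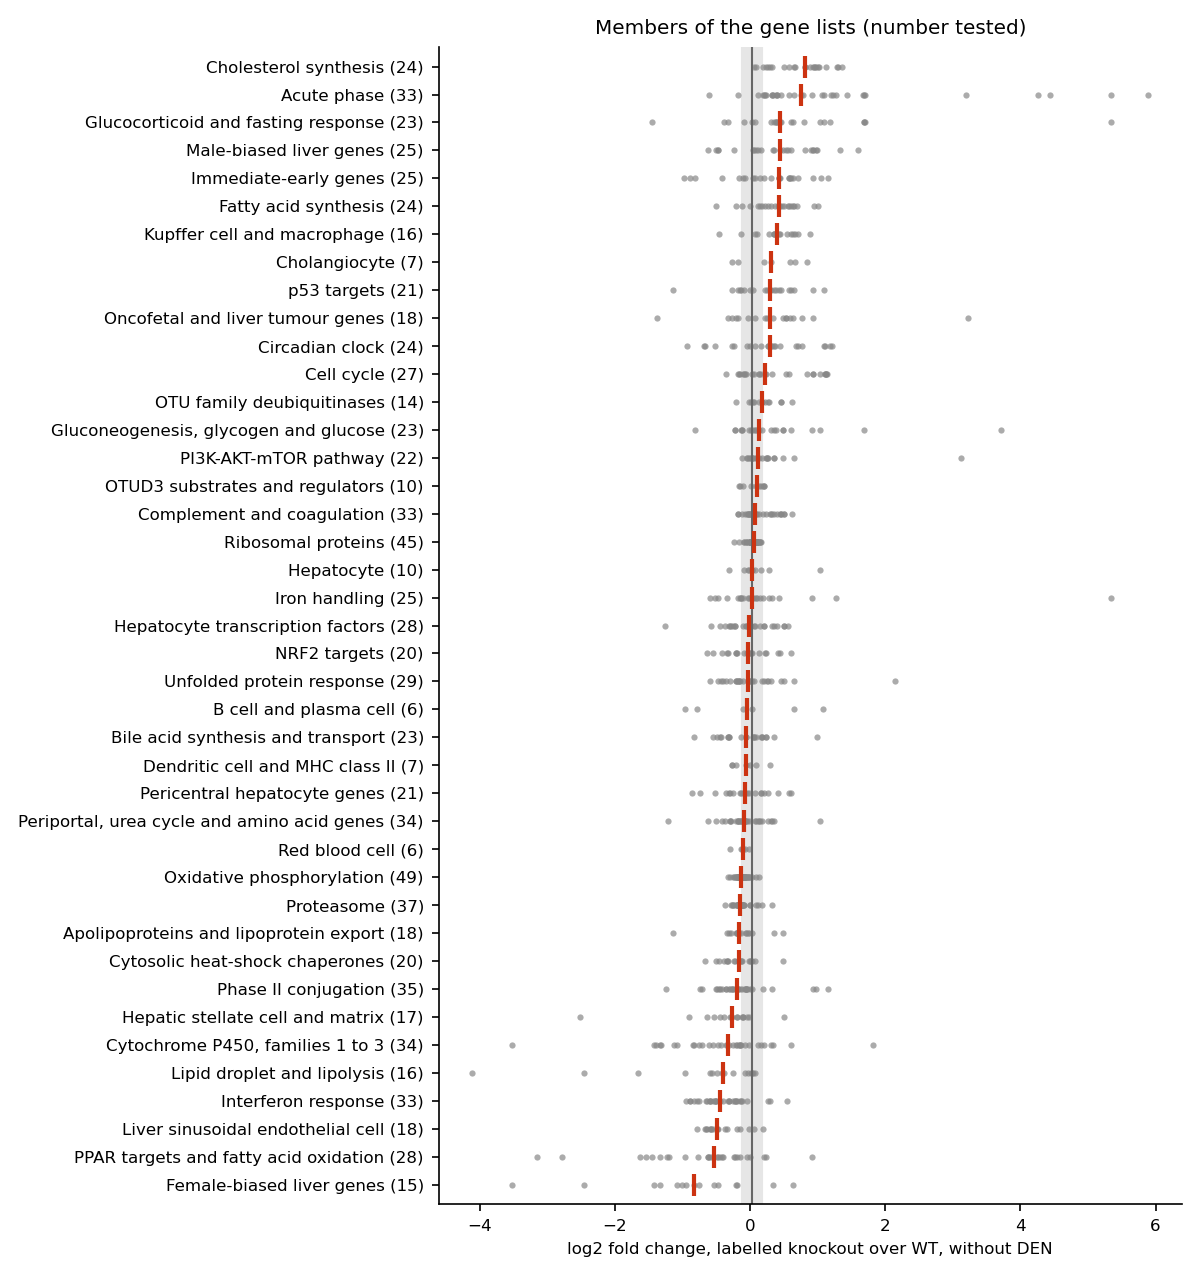
Log2 fold change of labelled knockout over WT without DEN for the members (grey points) of each gene list with at least 5 tested members, sorted by list median (red bar); the grey band is the middle 50% of all 12399 genes and the line their median (0.03). Medians run from -0.83 for female-biased genes, for which WT replicate 3 is as low as labelled knockout, to 0.81 for cholesterol synthesis, and acute phase, second from the top, rests on labelled knockout replicate 1.

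The same genotypes were also compared after DEN, which shares no library with the comparison above. One model of all 12 libraries, with genes listed for all 4 groups, gave a PPAR list median of -0.55 without DEN and 0.19 with DEN, where 20 of 28 members were above 0 (49.8% of all genes). The cholesterol list median was 0.79 without DEN and -0.22 with DEN. In earlier results of these data, 1 library with DEN stood far apart, and the values with DEN include it. The difference between the knockout effects with and without DEN was called for 0 of 12909 genes by edgeR (smallest adjusted p 0.735), with 842 (6.52%) at an unadjusted p under 0.05. DESeq2 called 13 and limma-voom with quality weights 1. Of the PPAR list, 5 of 28 members had an unadjusted interaction p under 0.05, and of the cholesterol list 7 of 24. Plin2 had a log2 fold change of 0.22 with DEN, and its interaction was 1.21 (edgeR unadjusted p = 0.00994, adjusted p = 0.735). Dhcr7 had 0.08 with DEN and an interaction of -0.88 (edgeR unadjusted p = 0.0552, adjusted p = 0.735). The opposite case was Cyp2b9, with -3.27 with DEN and an interaction of 0.27. The lists were chosen with earlier results of these data known, and the genes named here for their differences without DEN. Those differences enter the interaction, so its size for them is no separate support.

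**Figure D5:**
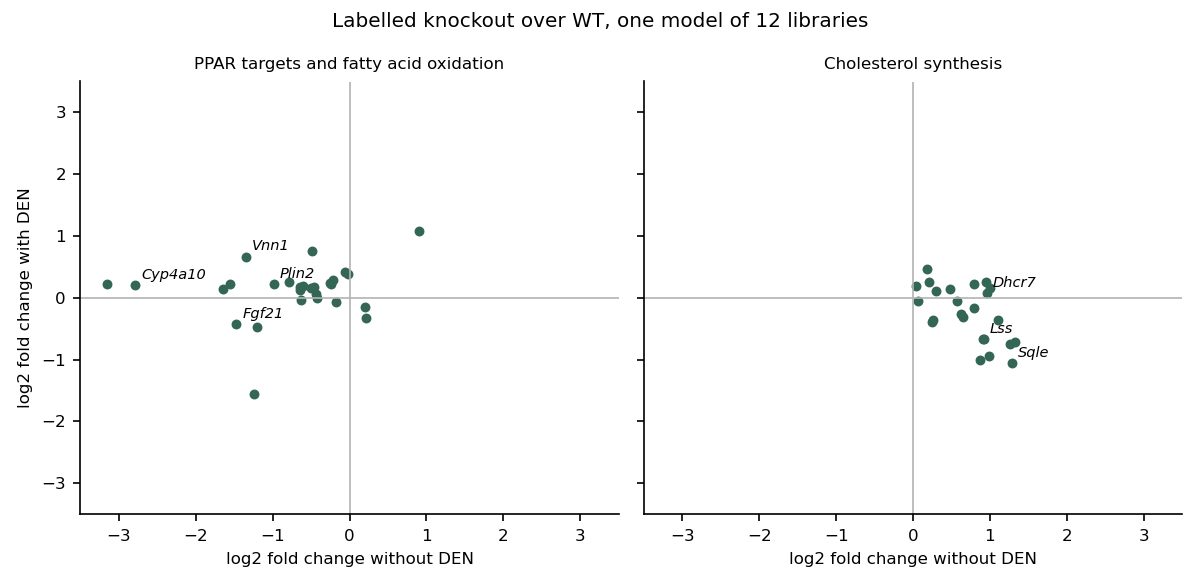
Log2 fold change of labelled knockout over WT without DEN (horizontal) and with DEN (vertical), from one model of 12 libraries, for the PPAR and fatty acid oxidation list (left) and the cholesterol synthesis list (right); each point is a gene. Points spread along the horizontal axis on the left (median -0.55 against 0.19) and lie right of 0 on the right (median 0.79 against -0.22).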

How the data were processed

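Tissue was liver, with 3 mice per group. Per the file headers, each deposited table (1 per group) gives a read count and a TPM per gene and library. The authors' deposited counts are expected counts, since 6.58% to 6.85% of values per library are not whole. Deposited TPM served for Otud3 and as an alternative. The tools named, per the submitters' processing notes, are RSEM 1.3.1, Bowtie2 2.3.4.3, HISAT2 2.2.1 and DESeq2 1.4.5, with build GRCm38.p6. Their roles, and whether strand was used, are not given in the sources used, so overlapping genes cannot be told apart by their reads. Tables list genes at a TPM of at least 0.01, so a missing gene is not a measured 0; 463 genes are in the WT table only and 335 in the labelled knockout table only. RefSeq matched 13568 of the 13600 genes in both.

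Counts were rounded, scaled by TMM and filtered with filterByExpr. One quasi-likelihood model (edgeR 4.0.16, robust, 4 residual degrees of freedom) was fitted to the 6 libraries, with Benjamini-Hochberg adjustment over all genes tested and 0.05 as the threshold. DESeq2 1.42.0 and limma 3.58.1 served as alternatives, with other scalings, filters, deposited TPM (pseudocount 0.1), a replicate block and leaving out each library. In simulated data of this design over 12294 genes, 41.4% of genes changed 2-fold and 90% of those changed 4-fold were called. Of unchanged genes 0.124% were called, and 1 gene was with no change simulated. These shares hold for the simulated setting only. In the data, edgeR did not call Cyp4a10, Cidec or Cyp2b9, which differed more than 4-fold (log2 fold changes -2.78, -2.46 and -3.52).

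Gene lists (33 of pathways, 13 of cell type markers) and members were chosen with earlier results of these data known. Lists are described by counts and medians. Named genes are Otud3, the 8 smallest p in each direction among genes with mean CPM of at least 1 and no overlap (skipping predicted models), up to 4 members per list with the smallest p, and the reported OTUD3 substrates; other members named were chosen after their values were seen. A few genes are counted in the lists but not reported singly. Chi-square per degree of freedom between libraries of a group was 46 to 431, so no library was a copy of another. P-values measure the spread between mice.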

Additional observations from a re-analysis of the deposited data

How the results depend on the processing

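edgeR called 0 genes under every scaling, filter and library left out, as did limma-voom and limma-trend with all 6 libraries, and 339 to 1381 genes had an edgeR unadjusted p under 0.05 with 1 library left out. DESeq2 called 18. With 1 library left out, chosen after seeing the data, it called 31, 2 and 25 (WT replicates 1, 2 and 3) and 24, 46 and 225 (labelled knockout). The replicate block called 0 genes (smallest adjusted p 0.0591). The numbers were not taken to pair the mice, since deviations of same-numbered libraries correlated at 0.088, 0.072 and 0.199, although each library correlated best with its own number. For the interaction, DESeq2 called 13 genes, quality weights 1 and the replicate block 0. Otud3 ran from -0.526 to 0.018 with 1 library left out, above 0 without labelled knockout replicate 3. Deposited TPM shifted the median of all genes to -0.119 and gave list medians of -0.739 (PPAR), -0.474 (P450) and 0.263 (male-biased). Quality weights gave 0.243 (cholesterol) and 0.235 (male-biased). With 1 library left out, medians ran from -0.634 to -0.404 (PPAR), -0.475 to -0.238 (lipid droplet) and -0.437 to 1.14 (acute phase, lowest without labelled knockout replicate 1). Without that library and WT replicate 2, chosen after seeing the data, they were -0.28, -0.183 and -0.448. For 56 of the named genes, 18 settings gave 1005 values, of which 976 kept direction and side of the threshold. Another 14 passed it, all in DESeq2, and 15 changed sign, in 6 of these 56 genes. Genes outside the 56 changed sign too, such as the marker Trf (0.276, and -0.0164 without labelled knockout replicate 1). With TPM, log2 fold changes were -0.0475 (Stub1) and -0.136 (Ireb2). Ireb2 was also -0.0717 by library size, -0.0251 without the 20 most abundant genes, -0.0877 with quality weights and -0.00437 in all 12 libraries. With 1 library left out, Ireb2 ran from -0.134 to 0.099 (-0.018 and -0.000276 without WT replicates 2 and 3), Stub1 from -0.0118 to 0.15 (-0.000896 without labelled knockout replicate 3), Hspa5 from -0.337 to 0.0649, Mavs from -0.348 to 0.118, Lcn2 from -0.752 to 6.4 and Orm2 from -0.543 to 5.19. The cause was not tested.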

Other observations

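Cell cycle genes were scarce in liver without DEN. Of 27 tested, 19 had a log2 fold change above 0 (55.4% of all genes) with a median of 0.22. An unadjusted p under 0.05 was reached by 5, all higher (2.77% of all genes). Cdk1, the mitotic kinase, had 0.736, 0.677 and 0.767 CPM in WT and 1.18, 1.56 and 1.74 CPM in labelled knockout, and Ccna2, its cyclin A partner, had 0.435, 0.462 and 0.467 CPM against 0.748, 1.13 and 1.10 CPM. In the model of 12 libraries the list median was 0.26 without DEN and -0.79 with DEN, where the library with DEN that stood far apart is included.

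Ddit4, a stress-induced inhibitor of mTOR, had 4.72, 2.801 and 4.5 CPM in WT and 15.3, 6.86 and 82.7 CPM in labelled knockout. Tff3, a trefoil peptide, had 0.636, 1.26 and 0.600 CPM in WT and 20.1, 2.09 and 1.37 CPM in labelled knockout. Ribosomal protein genes had a median log2 fold change of 0.05, which was -0.02 by library size alone, and proteasome genes of -0.15, with 31 of 37 below 0. Nuclear genes of oxidative phosphorylation had 46 of 49 below 0 and a median of -0.13, which was -0.02 without labelled knockout replicate 1. In the model of 12 libraries, unfolded protein response genes had a median of -0.06 without DEN and -0.66 with DEN, and cytosolic heat-shock chaperones -0.19 and -0.88. Both medians with DEN include the library that stood far apart.

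Of the genes listed in 1 table only, Slc15a2, a peptide transporter, had 189, 75 and 36 counts in WT, and Cyp26b1, which clears retinoic acid, had 215, 27 and 47. Msln, mesothelin, had 47, 10 and 55 counts in labelled knockout. Such genes have no value in the other group's table and were not tested.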
